A study of Mus musculus with 6 samples.

Results

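The 10 genes described here carry out or control sodium and water transport in the principal cell of the kidney collecting duct: Scnn1a, Scnn1b, Scnn1g, Aqp2, Aqp3, Aqp4, Avpr2, Hsd11b2, Nr3c2 and Kcnj1. They were taken by name, 10 of 22180 genes in the table. Each gene was read from the probe set that the platform annotation assigns to it alone, or from the brightest such set where there were several. Expression was measured on whole-transcript arrays in mouse inner medullary collecting duct (IMCD) cells, an epithelial line of the deepest part of the collecting duct. The tested cells carried the ILK missense variant T173I (ILK-T173I, 3 arrays) and the comparison cells carried wild-type ILK (3 arrays). ILK, integrin-linked kinase, is a scaffold protein of cell-matrix adhesions. In both groups the ILK sequence came from a lentivirus in stably transduced lines, on a vector that also encodes GFP. EGF (20 ng/ml, 15 minutes) was given to both groups, and RNA was taken after 1 more hour of incubation. The labels give no arm without EGF, none without added ILK, and no number of lines behind each group, so line and variant cannot be told apart. The 3 arrays of a group are labelled biological replicates, and p-values measure the spread between them.

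In the collecting duct, principal cells take up sodium through the epithelial sodium channel ENaC at the apical membrane, and the sodium pump moves it on across the basolateral membrane. Aldosterone, acting through the mineralocorticoid receptor, raises ENaC activity. Vasopressin, acting through the V2 receptor and cyclic AMP, brings the water channel aquaporin-2 to the apical membrane, while aquaporin-3 and aquaporin-4 let water leave on the basolateral side. The inner medullary part of the duct is known above all for water and urea transport under vasopressin.

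Scnn1g, the gamma subunit of ENaC, and Avpr2, the V2 receptor, were the members with the largest negative differences among those above background, and neither passed the adjusted test over all 6 arrays. Both had low signals on T173I replicates 2 and 3, and neither had a low signal on T173I replicate 1. Of the other 8 members, 4 lay just above the background of the arrays and 4 lay at or near it. Upstream sequence of the 2 genes is given below from RefSeq (build GRCm38.p6), because they share this pattern over the arrays. Nr3c2 and Hsd11b2, with smaller differences, were also below the wild-type range on T173I replicates 2 and 3 and not on replicate 1. The Scnn1g stretch is chr7:121734279-121734419 on the plus strand and ends before the earliest annotated start of the gene. The Avpr2 stretch is chrX:73891902-73892101 on the plus strand and ends at the transcript start used, inside the annotated span of the gene. Capitals mark the core AGAACA of hormone receptor sites or its reverse complement TGTTCT, and the core TGACG of cyclic AMP response elements or its reverse complement.
Scnn1g: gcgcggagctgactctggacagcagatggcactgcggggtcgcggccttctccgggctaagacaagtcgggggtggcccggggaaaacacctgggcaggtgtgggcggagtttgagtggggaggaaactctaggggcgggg
Avpr2: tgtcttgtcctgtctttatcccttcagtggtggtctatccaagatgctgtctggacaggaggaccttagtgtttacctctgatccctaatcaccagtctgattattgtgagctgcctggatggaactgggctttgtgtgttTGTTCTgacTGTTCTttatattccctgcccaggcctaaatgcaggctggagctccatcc
The Avpr2 stretch holds 2 copies of TGTTCT, at 59 to 54 and at 50 to 45 bases before the start. The Scnn1g stretch holds none of these letters. Of 7 members with an entry in the promoter table, Aqp2, Avpr2 and Kcnj1 had the hormone receptor core within 200 bases before the start, as did 12.9% of 32851 promoters. Kcnj1 alone had the cyclic AMP core, found in 15.7% of all promoters. None of the 7 had an AP-1 site (TGANTCA, 5.48% of promoters) or an Ets core (CGGAAG, 12.1%), searched on both strands. A match of letters is a description of the window and not a binding site.

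The table carries no detection call, so the level of a silent gene was read from the 1105 olfactory receptor genes on the arrays, taken as not expressed in a kidney line. Their 95th percentile was 5.34 to 5.43 log2 units over the 6 arrays and served as the background ceiling. By this measure 3 members were at background on every array, and 1 was above it on a single array. The other 6 members (Scnn1a, Scnn1g, Aqp2, Avpr2, Hsd11b2 and Nr3c2) exceeded the ceiling on all 6 arrays. The 99th percentile of the same receptors was 6.18 to 6.48. Against that stricter ceiling no member was above background on all 6 arrays, and 2 of them, Scnn1g and Avpr2, were above it on 4 arrays, namely T173I replicate 1 and the 3 wild-type arrays. Scnn1a exceeded it on 2 arrays, Hsd11b2 on 1, and Aqp2 and Nr3c2 on 0. Markers of other cell types can be set beside the members: of 52 such markers in 7 lists, 16 exceeded the 95th percentile ceiling on all arrays. Among them were Nphs1, nephrin of podocytes, at 5.78 to 5.80 on the T173I arrays and 5.71 to 5.83 on the wild-type arrays, and Foxi1, a transcription factor of intercalated cells, at 6.33 to 6.55 on the T173I arrays and 6.22 to 6.35 on the wild-type arrays. Scnn1a, Aqp2, Hsd11b2 and Nr3c2 thus had signals in the range of genes that define other cell types. The 16 were not all dim. Trpm6, from the list for loop of Henle and distal convoluted tubule, was higher than any member on any array. It had 8.20 to 8.56 on the T173I arrays and 8.14 to 8.72 on the wild-type arrays. Some markers listed for collecting duct epithelium were well above the ceiling. Cdh1, E-cadherin, was at 11.20 to 11.41 on T173I arrays and 11.27 to 11.33 on wild-type arrays. Hoxb7, a ureteric bud gene, was at 9.16 to 9.25 on T173I arrays and 9.05 to 9.11 on wild-type arrays. Of that list of 20 genes 15 were above background on all arrays, and 5 were below it on all arrays, namely Gata2, Elf5, Tfap2b, Lhx1 and Calb1. At an unadjusted p under 0.05, 3 of its 15 tested genes were higher in T173I, the keratins Krt19 (difference 1.62), Krt8 (0.64) and Krt18 (0.44), and 1 was lower, Gata3, a transcription factor of the duct (-0.78), and none passed the adjusted threshold (limma adjusted p = 0.45 for each). Gata3 had 6.33, 6.12 and 6.47 on the T173I arrays, against 6.91 to 7.34 on the wild-type arrays. Its other single-symbol probe set differed by 0.017. The label of collecting duct epithelium thus fits 15 of the 20 markers, as judged at the 95th percentile ceiling. Wnt9b, 1 of the 15, was dim, at 5.81 to 5.93 on T173I arrays and 5.65 to 5.87 on wild-type arrays. The members that define the mature principal cell, Aqp2 first among them, had signals no higher than those of some genes of other cell types.

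**Figure D1:**
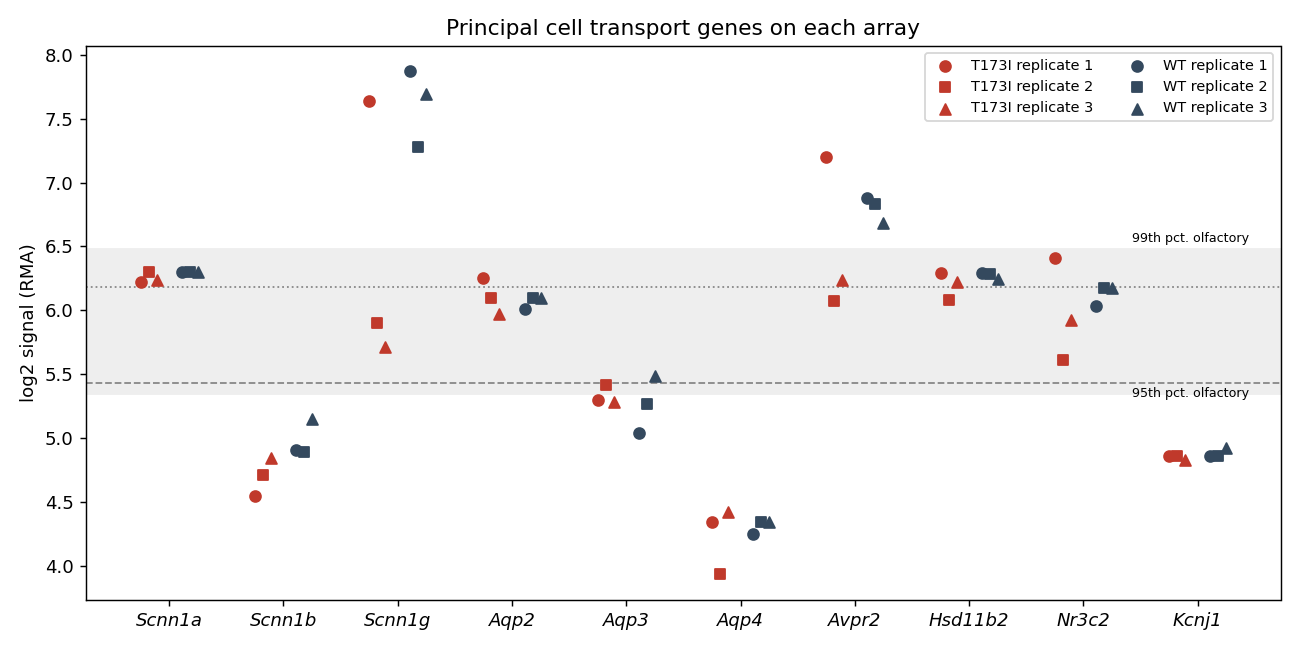
Log2 RMA signal of the 10 members (vertical axis) on each of the 3 T173I arrays (red, left of each gene) and the 3 wild-type arrays (dark, right), with symbols for the replicate numbers. The grey band runs from the lowest 95th to the highest 99th percentile of olfactory receptor genes over the arrays, with the highest 95th percentile dashed and the lowest 99th percentile dotted. Scnn1g and Avpr2 stand above the band on T173I replicate 1 and on all wild-type arrays, and inside it on T173I replicates 2 and 3. Scnn1b, Aqp4 and Kcnj1 lie below it.

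Scnn1g had log2 signals of 7.64, 5.90 and 5.71 on T173I replicates 1, 2 and 3, against 7.87, 7.28 and 7.69 on wild-type replicates 1, 2 and 3. T173I replicate 1 lay within the wild-type range, and the other 2 T173I arrays lay below every wild-type array, so the groups overlapped. The means were 6.42 ± 1.06 in T173I and 7.61 ± 0.30 in wild type (SD, n = 3 each). The difference, T173I minus wild type, was -1.19 log2 units with a 95% interval of -2.39 to 0.0033, a 2.29-fold lower signal that limma did not call (unadjusted p = 0.0505, adjusted p = 0.49). Set against the wild-type mean, T173I replicates 1, 2 and 3 deviated by 0.027, -1.71 and -1.90, while the wild-type arrays deviated by -0.34 to 0.26. As the arrays measure whole cultures, fewer cells with the transcript and less transcript per cell cannot be told apart. On T173I replicate 3 the signal was 0.35 above the background ceiling.

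Scnn1a encodes the alpha subunit, which the channel needs to conduct. Its log2 signal was 6.22, 6.30 and 6.24 on the T173I arrays, against 6.30 on each of the 3 wild-type arrays. The 3 wild-type arrays and T173I replicate 2 had the same value to the precision used (6 digits), so that its 6 arrays held 3 distinct values. The difference was -0.048 (95% interval -0.22 to 0.12, limma adjusted p = 0.81). A single equal pair was common in the table: of 13308 tested genes, 19.8% had some equal pair among the 6 arrays. The same value on all 3 wild-type arrays, as for Scnn1a, was rare, with 97 of the tested genes. Whether these ties alter the spread that limma measured was not tested. Scnn1b, the beta subunit, whose gene is the nearest protein-coding neighbour of Scnn1g downstream in RefSeq, was at background on all arrays. It had signals of 4.55, 4.71 and 4.84 on the T173I arrays, against 4.91, 4.89 and 5.15 on the wild-type arrays. The groups did not overlap, which was so for 12.7% of all 22180 genes, and the exact two-sided permutation p was 0.1, the smallest that 3 arrays against 3 can give. No fold is given, because both groups were below the ceiling. Of the 3 subunits of ENaC, one was therefore at background, one just above it, and one had a clear signal on 4 of the 6 arrays.

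Avpr2 had log2 signals of 7.20, 6.07 and 6.23 on T173I replicates 1, 2 and 3, against 6.88, 6.83 and 6.68 on the wild-type arrays. T173I replicate 1 was the highest of the 6 arrays and T173I replicates 2 and 3 were the lowest, so the T173I arrays lay on both sides of the wild-type range. The means were 6.50 ± 0.61 in T173I and 6.80 ± 0.10 in wild type (SD, n = 3 each). The difference of -0.30 log2 units had a 95% interval of -0.98 to 0.39 and was within the spread between T173I arrays (limma adjusted p = 0.71).

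On each of the 3 aquaporins the groups overlapped. Aqp2, the vasopressin-regulated apical water channel, had 6.25, 6.09 and 5.97 on the T173I arrays, against 6.01, 6.09 and 6.09 on the wild-type arrays. T173I replicate 1 was the highest and T173I replicate 3 the lowest of the 6. The difference was 0.041 (95% interval -0.19 to 0.27, limma adjusted p = 0.89). Its signal was above that of 98.5% of olfactory receptor genes. Aqp3, the basolateral water and glycerol channel, had 5.30, 5.41 and 5.29 on the T173I arrays, against 5.04, 5.27 and 5.48 on the wild-type arrays. It exceeded the ceiling only on wild-type replicate 3. Aqp4, the other basolateral water channel, was at background with 4.35, 3.93 and 4.42 on the T173I arrays, against 4.25, 4.35 and 4.35 on the wild-type arrays. The T173I arrays of both genes overlapped those of wild type (two-sided exact permutation test, p = 0.7 for Aqp3 and 1 for Aqp4).

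Of the mineralocorticoid pair, Nr3c2 encodes the receptor and Hsd11b2 the enzyme that inactivates glucocorticoids and so keeps the receptor open to aldosterone. Nr3c2 had 6.41, 5.61 and 5.93 on T173I replicates 1, 2 and 3, against 6.03, 6.17 and 6.17 on the wild-type arrays. As with Avpr2, T173I replicate 1 was the highest of all arrays and the other 2 T173I arrays were the lowest. The difference was -0.15 (95% interval -0.62 to 0.33, limma adjusted p = 0.79). Nr3c2 was the 1 member with a second probe set of its own, which was dim, at 4.28, 3.89 and 3.88 on the T173I arrays against 3.85, 3.82 and 3.86 on the wild-type arrays. Its difference of 0.17 had the opposite sign, with every T173I array above every wild-type array. That set was below the background ceiling on all arrays, so its difference is not read as a change. Groups did not overlap for 12.7% of all 22180 genes. Another probe set, annotated to Nr3c2 and Gm10649 together, was not used. Hsd11b2 had 6.29, 6.08 and 6.22 on the T173I arrays, against 6.29, 6.29 and 6.24 on the wild-type arrays. T173I replicates 2 and 3 were below the wild-type range by small amounts. The difference was -0.076 (95% interval -0.28 to 0.13, limma adjusted p = 0.74).

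Kcnj1, the apical potassium channel ROMK through which principal cells secrete potassium, was at background on every array. Its signals were 4.86, 4.86 and 4.83 on the T173I arrays, against 4.86, 4.86 and 4.92 on the wild-type arrays, with 3 distinct values among 6 arrays and an exact two-sided permutation p of 0.6.

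Read together from the fit over all genes, 6 of the 10 members passed the filter on dim genes, which left out the 40% of genes with the lowest mean over all arrays. Of these 6, 0 had an unadjusted p under 0.05, against 10.2% of the 13308 genes tested, and 0 had an adjusted p under 0.05, as for all genes tested. Of the 6 differences 5 were negative, against 52.6% of all tested genes, and their median was -0.11 log2 units, against -0.011 for all tested genes. The T173I arrays differed among themselves. On T173I replicate 3 all 6 were below the wild-type range. On T173I replicate 2, 4 of 6 were below it (Scnn1g, Avpr2, Hsd11b2 and Nr3c2) and none above. On T173I replicate 1, 1 was below it (Scnn1a) and 3 were above it (Aqp2, Avpr2 and Nr3c2). For Scnn1a the wild-type range was a single value. On T173I replicate 3 Aqp2 (5.97 against 6.01) and Hsd11b2 (6.22 against 6.24) missed the range narrowly. The share of all tested genes outside the wild-type range on each array was not computed. These counts are therefore not read as a result about the members. The mean deviation of the 6 from wild type was 0.14, -0.52 and -0.48 on T173I replicates 1, 2 and 3. Scnn1g, at -1.71 and -1.90 on replicates 2 and 3, had the largest deviation on both. Scnn1a and Aqp2 deviated by 0 and 0.029 on replicate 2. The same mean was not computed for all tested genes. Over the tested genes T173I replicate 1 correlated at 0.985 to 0.991 with the wild-type arrays. With T173I replicates 2 and 3 it correlated at 0.9645 and 0.9805. T173I replicate 2 was the array least like wild type, at 0.9592 to 0.967. T173I replicate 3 was about as close to the wild-type arrays (0.9772 to 0.9825) as to T173I replicate 2 (0.983). Over the table at large replicate 1 was thus the T173I array closest to wild type, and replicate 2 the farthest.

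**Figure D2:**
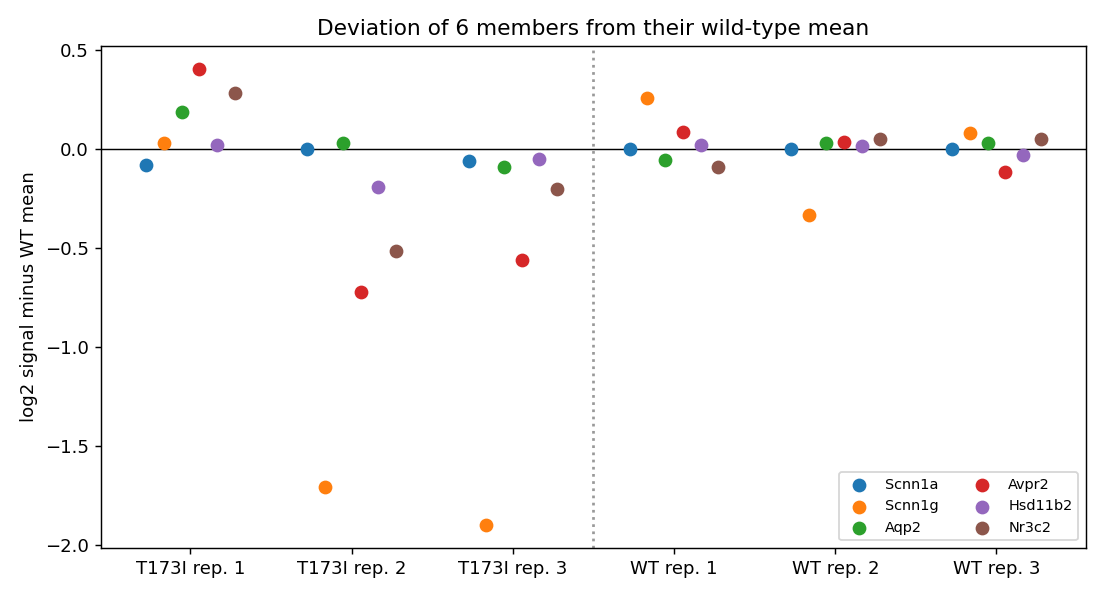
Log2 signal of the 6 members above background minus the mean of that gene over the 3 wild-type arrays (vertical axis), for each T173I array (left) and wild-type array (right). Scnn1g lies at -1.71 and -1.90 on T173I replicates 2 and 3 and at 0.027 on T173I replicate 1, and Avpr2 and Nr3c2 are highest on T173I replicate 1.

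Each array was also left out in turn. Without T173I replicate 1 the difference of Scnn1g was -1.80 (95% interval -2.27 to -1.34) and Scnn1g fell in limma's test (adjusted p = 0.027), 1 of 6 tested members against 0.488% of all genes called lower in that fit. Avpr2 then had a difference of -0.64 (adjusted p = 0.059) and Nr3c2 one of -0.36 (adjusted p = 0.17), neither past the threshold. At an unadjusted p under 0.05, 3 of 6 members were lower in that fit (Scnn1g, Avpr2 and Nr3c2), against 12.3% of all tested genes. Without T173I replicate 2 the difference of Scnn1g was -0.94 and that of Avpr2 -0.080, and without T173I replicate 3 they were -0.84 and -0.16. Leaving out a wild-type array gave Scnn1g differences of -1.36 to -1.07, with no member past an unadjusted p of 0.05. The labels give no reason to set T173I replicate 1 aside, and the values over all 6 arrays remain the comparison of the groups.

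**Figure D3:**
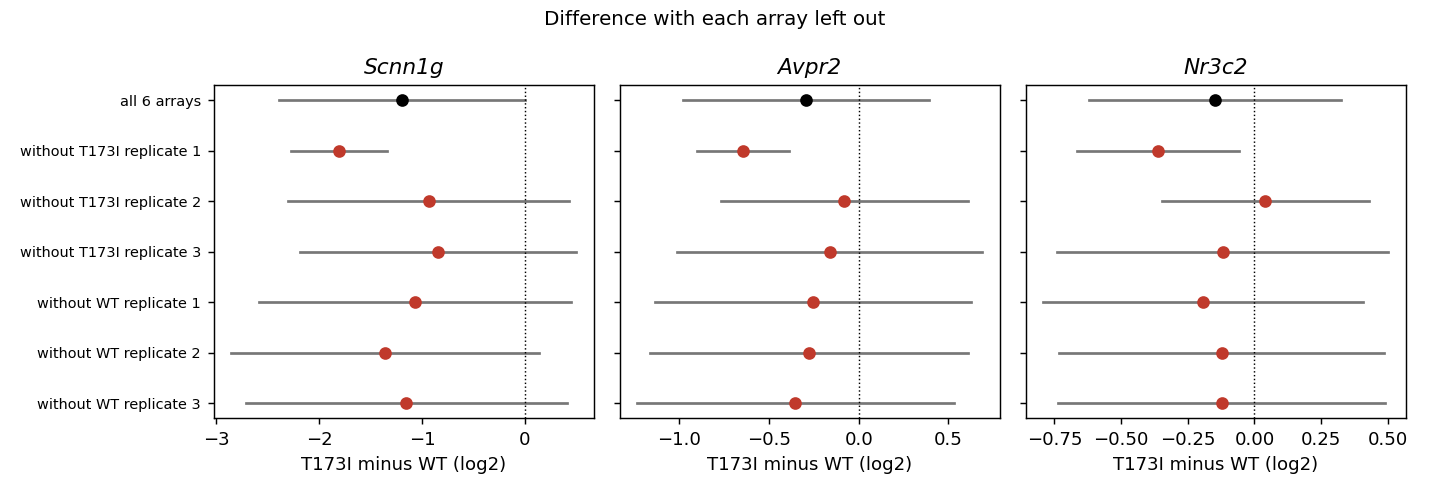
Difference, T173I minus wild type in log2 units (horizontal axis, a separate scale for each gene), for Scnn1g, Avpr2 and Nr3c2 with all 6 arrays (black) and with each array left out (red), and 95% intervals of limma's fit as lines. The interval of Scnn1g ends at 0.0033 with all 6 arrays and runs from -2.27 to -1.34 without T173I replicate 1.

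The genes whose values over the 6 arrays were most like those of the 3 tested members with the largest differences were found among 12314 tested genes. For Scnn1g these were Hs6st1, a heparan sulfate sulfotransferase (Pearson r = 0.997), Ppic, a cyclophilin (0.993), and Irf1, an interferon regulatory transcription factor (0.993). Hs6st1 had signals of 11.27, 10.19 and 10.05 on the T173I arrays, against 11.41, 11.15 and 11.29 on the wild-type arrays. It too was within the wild-type range on T173I replicate 1 and below it on the other 2. For Avpr2 they were Pml (0.998), Ppil2 (0.995) and Rex1bd (0.992), and for Nr3c2 they were Hacd2 (0.996), Dchs1 (0.994) and Plin3 (0.993). These are the 3 highest of 12314 correlations for each member, over 6 arrays in 2 groups, and they describe likeness of pattern only.

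Genes around the members were read from 5 lists of 73 genes, of which 67 had a value of their own and 55 were tested. At an unadjusted p under 0.05, 6 were lower in T173I, against 5.31% of all tested genes, and 1 was higher, against 4.88%. None passed the adjusted threshold. In the list of ENaC and mineralocorticoid regulators 1 of 19 tested genes was lower at that level and 0 were higher, and the median difference was -0.077. That gene was Cnksr3, a scaffold protein that is induced by aldosterone and stimulates ENaC, with 9.81, 9.02 and 9.28 on the T173I arrays and 9.88 to 10.20 on the wild-type arrays (difference -0.64, limma adjusted p = 0.45). Sgk1, the aldosterone-induced kinase that keeps ENaC at the membrane, had 7.74, 8.79 and 7.10 on the T173I arrays, against 8.54 to 8.84 on the wild-type arrays. Here T173I replicate 2 lay in the wild-type range and replicates 1 and 3 below it, unlike Scnn1g (difference -0.76, adjusted p = 0.53). Prss8, prostasin, a membrane protease that activates ENaC, had a difference of -0.67 (adjusted p = 0.49). Nedd4l, the ubiquitin ligase that removes ENaC from the membrane, had a difference of 0.079, Nr3c1, the glucocorticoid receptor, one of -0.11, and Tsc22d3, a corticosteroid-induced leucine zipper protein, one of -0.11. Wnk1, a kinase that regulates distal salt transport, had a difference of 0.40 (adjusted p = 0.49).

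Of the sodium pump genes, Atp1b1, a beta subunit, had a difference of -0.057 and Atp1b3 one of -0.10. Fxyd4, a corticosteroid-induced pump regulator of the collecting duct, was at background with 5.04, 5.27 and 5.20 on the T173I arrays, against 4.98 to 5.33 on the wild-type arrays. Fxyd5, dysadherin, had 5.79, 6.68 and 6.24 on the T173I arrays, against 5.61 to 5.76 on the wild-type arrays (difference 0.54, limma adjusted p = 0.49). Each T173I array was above the wild-type range. Groups did not overlap for 12.7% of all 22180 genes, a share that includes the dim genes left out of the test.

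In the list of vasopressin signalling, cyclic AMP and aquaporin-2 trafficking, 2 of 19 tested genes were lower at an unadjusted p under 0.05. That share was 5.31% over all tested genes. In the list 0 were higher, and the median difference was -0.060. The 2 genes encode subunits of protein kinase A, the kinase that vasopressin activates through cyclic AMP. Other tested subunits in the list, Prkaca (-0.15), Prkar1a (-0.15) and Prkar2a (0.15), were not past that level and differed in sign. The catalytic subunit Prkacb had 9.95, 9.61 and 9.85 on the T173I arrays, against 10.06 to 10.14 on the wild-type arrays (difference -0.31, limma adjusted p = 0.47). The regulatory subunit Prkar2b had 8.91, 8.40 and 8.51 on the T173I arrays, against 8.92 to 9.23 in wild type (difference -0.45, limma adjusted p = 0.47). On both genes every T173I array, replicate 1 included, was below the wild-type range, for Prkar2b only just (8.91 against 8.92). Groups did not overlap for 12.7% of all 22180 genes, dim genes outside the test included, and both genes were named for their unadjusted p. Adcy6, a vasopressin-sensitive adenylyl cyclase, had a difference of -0.085, and Vamp3, a vesicle fusion protein, one of 0.20. The probe set assigned to Gnas alone differed by -0.060. It was dim, at 5.50 to 5.66 on the T173I arrays and 5.65 to 5.69 on the wild-type arrays, just over the background ceiling. Of 5 tested aquaporins outside the members 0 were lower and 0 higher at that level. Aqp11, an intracellular aquaporin, had a difference of 0.16, Aqp7 one of -0.095 and Aqp12 one of -0.098.

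Among other potassium, chloride and urea transport genes of the duct, 3 of 9 tested were lower at an unadjusted p under 0.05. That share was 5.31% over all tested genes. In the list 0 were higher, and the median difference was -0.078. The 3 genes encode potassium channels, of which the list holds several. Its other tested potassium channel genes, Kcnj10 (-0.038) and Kcnmb4 (-0.078), were not past that level. Kcnj16, a basolateral inward rectifier, had 9.57, 8.10 and 8.94 on the T173I arrays, against 9.65 to 10.90 on the wild-type arrays (difference -1.24, limma adjusted p = 0.48). Kcnma1, the pore of the BK channel that secretes potassium at high flow, had 13.29, 13.21 and 13.33 on the T173I arrays, against 13.49 to 13.53 in wild type, a small and even difference of -0.23 (limma adjusted p = 0.45). Kcnk1, a potassium channel of the K2P family, had a difference of -0.49 (limma adjusted p = 0.49). On T173I replicate 1 Kcnj16 and Kcnma1 were below the wild-type range, in contrast to Scnn1g, Avpr2 and Nr3c2. Slc14a2, the vasopressin-regulated urea transporter of the inner medulla, was at background with 4.80, 4.80 and 4.76 on the T173I arrays, against 4.95 to 4.97 on the wild-type arrays.

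**Figure D4:**
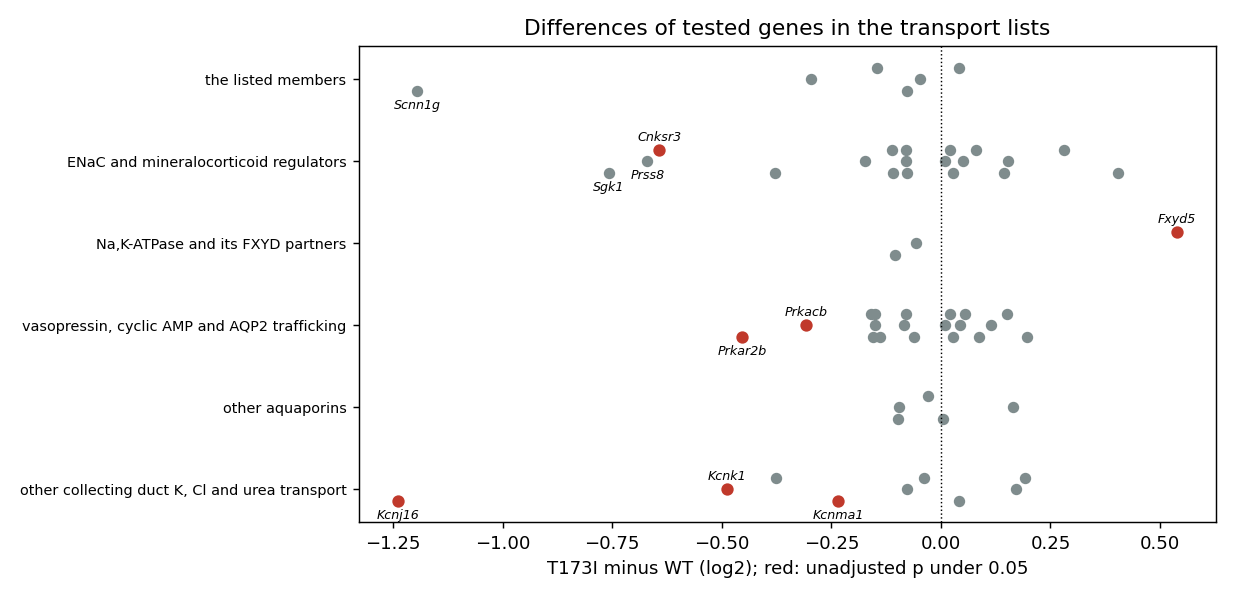
Difference, T173I minus wild type in log2 units (horizontal axis), of each tested gene among the listed members and in 5 lists of transport genes (rows), over all 6 arrays. Red points have an unadjusted p under 0.05 in limma's fit, 6 of them lower and 1 higher in T173I, and none passed the adjusted threshold. Scnn1g, at -1.19, is named beside its grey point.

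Of the markers of other cell types, endothelial ones were above the ceiling on all arrays for 0 of 5 genes, and intercalated cell markers for 3 of 12. The summed linear signal of the intercalated markers was 472 to 493 on the T173I arrays and 454 to 486 on the wild-type arrays. That of the 8 fibroblast markers was 721 to 3681 on T173I and 460 to 493 on wild-type arrays, and it included Acta2, smooth muscle actin, at 7.92, 11.74 and 9.33 on T173I replicates 1, 2 and 3 against 7.27 to 7.98 in wild type. Postn, periostin, had 8.05, 5.49 and 4.30 on the T173I arrays, against 4.65 to 6.26 on the wild-type arrays. Dcn and Lum, which define fibroblasts, were at background on all arrays. Of the leukocyte markers Cd68, a lysosomal protein, had 8.40, 9.08 and 9.63 on the T173I arrays, against 7.47 to 8.26 on the wild-type arrays, while Csf1r, a receptor of macrophages, had 6.52, 5.52 and 5.93 on the T173I arrays, against 6.60 to 7.05 on the wild-type arrays. Ptprc, which defines leukocytes, was at background on all arrays. Acta2 was thus high on the same 2 arrays on which Scnn1g was low, and the part of that in the result for Scnn1g was not tested.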

How the data were processed

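RNA of 6 samples was measured on 1 Affymetrix whole-transcript array each, labelled with the WT PLUS kit per the labels' protocols. Per the submitters' processing notes the deposited log2 signals are RMA values. The method removes background, makes the signal distributions of the arrays alike and summarises each probe set, so a shift of most transcripts would not be seen. Its version was not given in the sources used here. Values ran from 0.873 to 13.7. Precision is limited by the number of arrays.

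Of 41345 probe sets, 23521 have 1 gene symbol, 1814 have several and were not used, and 16010 are unnamed here. The brightest probe set by mean over all arrays stood for a gene, and 13308 of 22180 genes (those with a mean above 5.37) were tested. T173I was compared with wild type in limma 3.58.1 (R 4.3.3; lmFit, eBayes, no covariate, two-sided), with Benjamini-Hochberg adjustment over all tested genes and a threshold of 0.05. Exact permutation tests were run for members outside the fit. Scripts were tested on simulated data. Same-numbered arrays correlated at 0.0488, 0.0667 and 0.0477 in their deviations, so numbers were not treated as pairs.

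The members, lists and tests were chosen with earlier results of these data known. From each list were named the genes with an unadjusted p under 0.05 (with fewer than 3, the 3 smallest p), 10 genes of known role, and the 3 genes most correlated with each of 3 members. One gene the rule names is not reported here. Markers of cell types were named as examples, chosen after their values were seen. Alternatives covered the filter, prior, normalization, probe set rule, array weights, replicate block, background ceiling and leaving out each array.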

Additional observations from a re-analysis of the deposited data

How the results depend on the processing

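No member of the 6 tested passed an unadjusted p of 0.05 over all 6 arrays, but Scnn1g stood at that limit. The count was 1 (Scnn1g) with the stricter filter, a trended or robust prior, repeated quantile normalization, equal array medians, cyclic loess, the mean of probe sets, or the replicate block, 1 (Scnn1b) with no filter, and 2 (Scnn1g and Avpr2) with array weights. Leaving out single arrays gave 0 to 3. The number of genes past the adjusted threshold was 0 to 156 when single arrays were left out, with 156 only without T173I replicate 1, and 0 under every other alternative run. With no paired labels the replicate block gave Scnn1g the same difference (-1.19, adjusted p = 0.38) and changed no adjusted call. The difference of Scnn1g ranged from -1.80 to -0.84 over the arrays left out, and it passed the adjusted threshold only without T173I replicate 1 (adjusted p = 0.027, with 0.12 to 0.84 under the other alternatives). The difference of Avpr2 was -0.45 with array weights (adjusted p = 0.23). Aqp2 changed sign with array weights (-0.041) and without T173I replicate 1 (-0.032), and Nr3c2 without T173I replicate 2 (0.040). Over the arrays left out Aqp2 ran from -0.032 to 0.11 and Nr3c2 from -0.36 to 0.040. The causes were not tested. With the stricter filter only Scnn1g of the members was tested, and with the mean of probe sets Nr3c2 was not. The 6 members above background became 0 at the 99th percentile of olfactory receptors. Signals near that background limit what can be said of Scnn1a, Aqp2, Hsd11b2 and Nr3c2.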
